A study of Homo sapiens with 4 samples.

Results

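The genes described here are 30 keratin and desmosome genes of human epithelia, measured in MDA-MB-468, an established breast cancer cell line, with and without a knockout of the histone variant mH2A1.2. They comprise 3 basal keratins, 5 stress keratins, 4 simple epithelial keratins, 7 other keratins, 4 desmosomal cadherins and 7 desmosomal plaque proteins. Each gene was represented by its brightest probe, the one with the highest mean signal over the 4 arrays. A named probe was found for 25 of the 30, among 19968 named genes in all. KRT6A, KRT6B, KRT17, KRT81 and KRT86 had no named probe, and those genes were not analysed here. RNA from 2 wild type and 2 knockout samples was hybridised to 4 Illumina bead arrays on 1 chip. All samples are of the same line, no treatment is given in the labels, and the labels do not say whether the knockout cells were 1 clone or a pool. Nor do they name separate cultures for the replicates, so that a p-value covers only the spread between these 4 samples, and that spread may be technical.

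Keratins are the intermediate filament proteins of epithelial cells and assemble as pairs of a type I and a type II chain. KRT8 and KRT18 are the pair of simple and luminal epithelia, KRT5 and KRT14 are the pair of basal cells, and KRT6 chains with KRT16 and KRT17 are induced in stressed or wounded epidermis. Desmosomes join the keratin networks of neighbouring cells: desmogleins and desmocollins are the cadherins that cross the membrane, plakoglobin (JUP) and the plakophilins bind their tails, and desmoplakin (DSP) links this plaque to keratin filaments. mH2A1.2 is a splice form of macroH2A1, a histone H2A variant with a large extra domain, encoded by MACROH2A1.

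Signals were corrected for background, quantile normalized between arrays and put on the log2 scale, called the normalized signal here. A probe was taken as detected on an array where its detection p-value, the share of the array's negative controls with a signal at least as high, was under 0.05. Of 47230 probes, 147 whose detection p-values did not follow the steps of the others were left out, a choice made after results with and without them had been seen. Between 18606 and 19670 of 47083 probes were detected per array, median raw signals lay between 142.7 and 146.8, and all 11228 genes detected on at least 2 arrays were tested together with limma. Only 2 arrays stand in each group, and their number limits the precision. The gap between the knockout arrays had a median of 0.36 log2 units over these genes, and the gap between the wild type arrays one of 0.18. Knockout replicate 2 lay farther from the wild type mean than knockout replicate 1 in 7323 of 11228 genes. MACROH2A1, the targeted gene, read 13.04 and 12.96 in wild type, compared with 12.32 and 12.13 in knockout at its brightest probe, ILMN_2373495. Both knockout arrays were below both wild type arrays, with a mean difference of -0.78 ± 0.20 log2 units (SE, n = 2 per group, limma adjusted p = 0.164). The labels and files do not state which part of the gene the probe reaches, so it checks the labels only in part.

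The labelled breast cancer line was set against epithelial markers. EPCAM, an epithelial surface protein, was detected on all 4 arrays at 9.25, 9.32, 9.47 and 9.25 in both wild type and then both knockout replicates, the order kept below for sets of 4. KRT8 and KRT18 were detected on all arrays too. CDH1, which encodes E-cadherin, was not detected on any array at its brightest named probe, with normalized signals of 4.63, 4.58, 4.45 and 4.66. VIM, the intermediate filament protein vimentin and chosen for mention after its values were seen, read 13.98, 13.86, 14.08 and 14.01. The identity of the line was taken from the labels and was not tested. Of the marker lists for other cells, 2 of 9 fibroblast, 2 of 8 leukocyte, 4 of 6 smooth muscle and myoepithelial and 0 of 5 endothelial genes could be tested.

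The study's arrays report RNA and not regulatory sequence, and the start regions of a few members are shown as context for genes that read differently from each other. RefSeq windows of assembly GRCh38.p14, from 250 bases before to 50 after the start of transcription, were found for 11 members in 13 windows. The windows shown were picked by the genes' readings. They are those of DSP and DSG2, which read higher on both knockout arrays, of KRT10, which read lower on both, and of KRT5, which was not detected. They are written 5′ to 3′ on the gene's strand, at chr6:7541421-7541720 (plus strand) for DSP, chr18:31497927-31498226 (plus strand) for DSG2, chr17:40822565-40822864 (minus strand) for KRT10 and chr12:52520345-52520644 (minus strand) for KRT5. Capitals mark 3 motifs searched on both strands: the TATA box (TATAAA or TTTATA), the GC box read by SP1 (GGGCGG or CCGCCC) and the E2 box that the repressors SNAI1 and ZEB1 can bind (CACCTG or CAGGTG).
DSP: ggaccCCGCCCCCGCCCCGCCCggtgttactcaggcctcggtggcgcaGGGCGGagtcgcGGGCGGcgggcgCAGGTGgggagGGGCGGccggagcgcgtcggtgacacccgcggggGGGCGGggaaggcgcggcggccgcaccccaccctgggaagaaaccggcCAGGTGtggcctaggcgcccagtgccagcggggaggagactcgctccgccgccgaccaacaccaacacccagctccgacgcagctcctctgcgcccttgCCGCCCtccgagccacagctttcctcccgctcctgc
DSG2: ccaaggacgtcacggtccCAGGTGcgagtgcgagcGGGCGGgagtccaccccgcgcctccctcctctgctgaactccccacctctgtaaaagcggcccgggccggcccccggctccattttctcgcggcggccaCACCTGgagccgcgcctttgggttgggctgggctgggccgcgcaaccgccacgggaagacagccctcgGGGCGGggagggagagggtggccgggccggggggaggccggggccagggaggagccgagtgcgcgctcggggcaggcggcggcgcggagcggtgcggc
KRT10: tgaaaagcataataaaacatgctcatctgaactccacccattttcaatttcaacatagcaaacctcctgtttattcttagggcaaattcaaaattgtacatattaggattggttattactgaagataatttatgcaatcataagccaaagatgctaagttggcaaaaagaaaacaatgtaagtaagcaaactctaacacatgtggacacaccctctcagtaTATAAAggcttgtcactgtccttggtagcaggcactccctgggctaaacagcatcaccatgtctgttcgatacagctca
KRT5: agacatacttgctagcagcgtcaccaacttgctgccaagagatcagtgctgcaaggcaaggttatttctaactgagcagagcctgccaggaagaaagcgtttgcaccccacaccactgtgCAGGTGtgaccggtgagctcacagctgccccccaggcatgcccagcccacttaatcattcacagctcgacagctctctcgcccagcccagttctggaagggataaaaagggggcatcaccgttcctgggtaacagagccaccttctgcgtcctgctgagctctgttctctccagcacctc
The TATA box stood in 11.5% of 35116 windows, the GC box in 45.0% and the E2 box in 20.6%. The DSP window held 8 GC boxes and 2 E2 boxes, and the DSG2 window held 2 of each. Copies of the GC box in the DSP window share a base in places, and no 2 different motifs overlapped in these windows. The KRT10 window held 1 TATA box, and the KRT5 window 1 E2 box. Windows not shown include those of KRT8, DSC3 and DSC2, which also read higher on both knockout arrays. Those of KRT8 and DSC3 held none of the motifs, with 2 and 25 CpG dinucleotides, and the DSC2 windows held GC boxes. A link between window and reading was not tested. Over the 4 keratin windows found, the number of CpG dinucleotides ran from 1 to 7, with a median of 3.5. Over 9 windows of desmosome genes it ran from 6 to 37, with a median of 22, and all windows had a median of 14. A match is a description of letters in a window, and nothing about binding was measured.

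Simple epithelial keratins and some of the desmosome genes were detected on every array, and the classical basal pair was not detected on any. Of the 25 members with a named probe, 12 were detected on all 4 arrays: KRT7, KRT8, KRT18, KRT19, KRT10, KRT80, DSG2, DSC2, DSP, PKP2, JUP and EVPL. KRT15 was detected on 3 arrays and DSC3 on 2, which makes 14 members tested. KRT16, PKP1, PKP3 and PPL were each detected on 1 array. KRT5, KRT14, KRT6C, KRT4, KRT13, KRT23 and DSG3 were detected on none. Untested members have values near background and are described without a test.

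**Figure D1:**
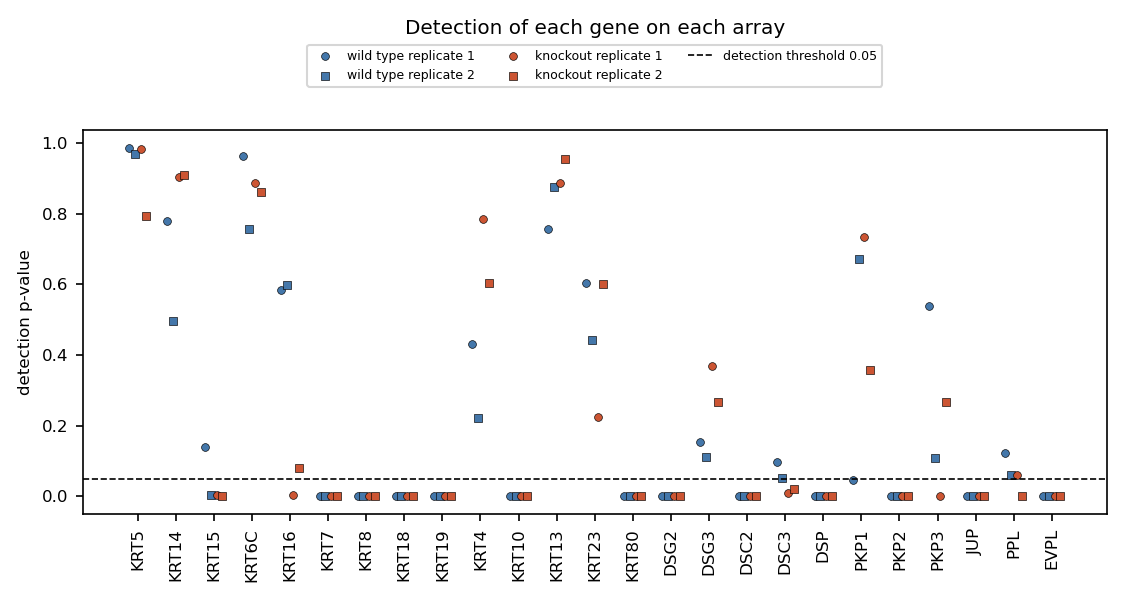
Detection p-value (vertical axis, no unit) of the brightest probe of each of 25 genes on each array, with wild type in blue, knockout in orange and replicates 1 and 2 as circles and squares. The dashed line is the threshold of 0.05, and 12 genes lie below it on all 4 arrays while KRT5, KRT14, KRT6C, KRT4, KRT13, KRT23 and DSG3 lie above it on every array.

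No member passed the test over all genes, nor did any of the 11228 genes (0% at a limma adjusted p under 0.05). At an unadjusted p under 0.05, 2 of 14 tested members were counted, against 20.1% of all tested genes. Both, KRT19 and DSP, read higher, against 10.4% of all genes, and none of the 14 read lower, against 9.75%. In 7 of 14 members both knockout arrays lay above both wild type arrays, against 25.9% of all tested genes, and in 3 of 14 both lay below, against 28.2%. That makes 10 of 14 members without overlap, against 54.1% of all tested genes. One of the 7, DSC3, was tested only because it was detected on the knockout arrays. Differences were positive for 10 members and negative for 4, and 2 members, KRT19 and JUP, differed by at least 2-fold, against 7.32% of all genes. The median difference over all tested genes was -0.013. In bulk RNA such as this, a change in the number of cells of a kind and a change in RNA per cell cannot be told apart. With the 147 probes kept, 4 of 14 members were counted at an unadjusted p under 0.05, KRT8 and EVPL besides these, and again none passed over all genes.

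**Figure D2:**
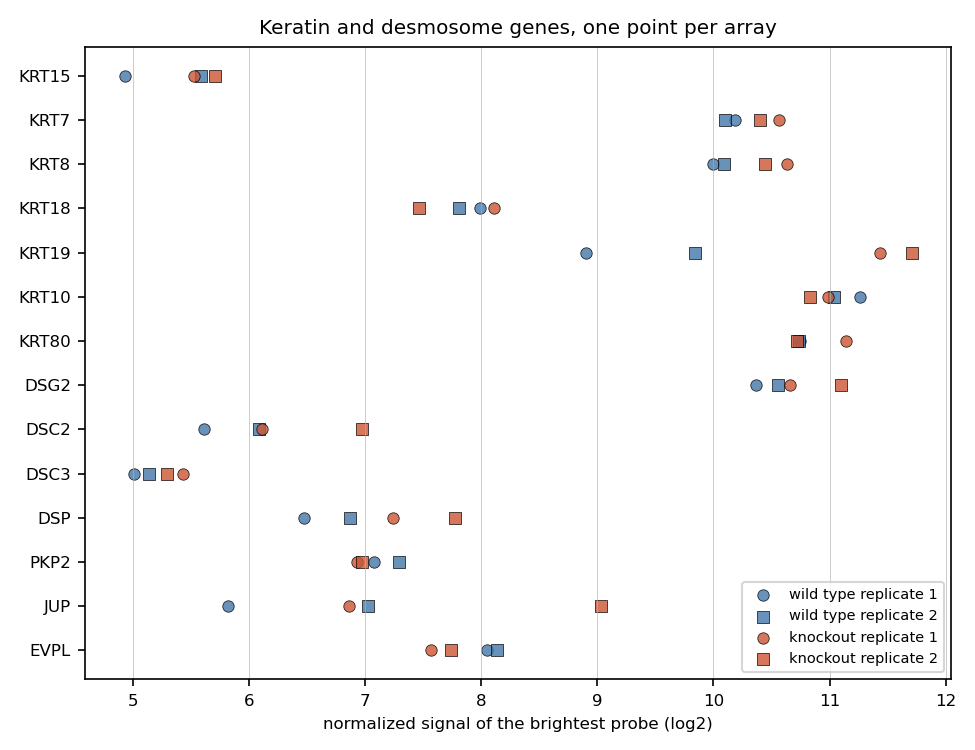
Normalized signal (log2, horizontal axis) of the brightest probe of the 14 tested genes, 1 point per array, wild type in blue and knockout in orange. KRT19 has its knockout points at 11.44 and 11.71, to the right of 8.90 and 9.84 in wild type, and JUP has 1 knockout point at 9.03 apart from the other 3.

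Among the simple epithelial keratins, KRT19, KRT8 and KRT7 read higher on both knockout arrays, and KRT18 overlapped between groups. The median difference of the 4 was 0.42, with 0.51 on knockout replicate 1 and 0.33 on knockout replicate 2, each against the wild type mean. All 4 were detected on all 4 arrays.

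KRT19, a type I keratin of simple and glandular epithelia that lacks the usual tail domain, had the largest difference of the 14. Its raw signals were 604.6 and 1100 in wild type, compared with 2952 and 3106 in knockout. Its normalized signals were 8.90 and 9.84 in wild type, compared with 11.44 and 11.71 in knockout. Both knockout arrays lay well above both wild type arrays, and the wild type arrays were themselves 0.94 apart, a gap larger than that of 98.7% of all tested genes. The difference was 2.20 ± 0.36 (SE, n = 2 per group), or 4.59-fold, with a 95% interval of 1.30 to 3.10 on the log2 scale. Of 11228 genes, KRT19 stood at rank 46 from the highest difference and at rank 110 by p. It missed the threshold over all genes (limma adjusted p = 0.133). Leaving out either wild type array gave 1.73 and 2.67. Without knockout replicate 1 the difference was 2.33 and passed (limma adjusted p = 0.0258), in a fit that gives the lone array the spread of wild type and in which 2367 genes passed.

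KRT8, the type II partner of KRT18, read 9.99 and 10.09 in wild type, compared with 10.63 and 10.45 in knockout. KRT7, a type II keratin of glandular epithelia, read 10.18 and 10.10 in wild type, compared with 10.57 and 10.41 in knockout. In both genes the groups did not overlap, and the gap between groups was larger than that between replicates. The KRT8 difference was 0.50 ± 0.20 (SE, n = 2 per group), or 1.41-fold, and the KRT7 difference was 0.34 ± 0.20, or 1.27-fold. Neither passed over all genes (limma adjusted p = 0.249 and 0.374).

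KRT18, the type I partner of KRT8, read 7.99 and 7.81 in wild type, compared with 8.11 and 7.46 in knockout at its brightest probe, ILMN_1803408. Knockout replicate 1 was the highest of the 4 arrays and knockout replicate 2 the lowest, and the difference was -0.11 ± 0.28 (SE, n = 2 per group, limma adjusted p = 0.852), with a 95% interval from -0.82 to 0.59. Without knockout replicate 2 its sign turned, to 0.21. The second probe of KRT18, ILMN_1730848, told otherwise: it read 6.95 and 7.07 in wild type, compared with 6.27 and 6.02 in knockout, lower on both knockout arrays. Over all probes its difference was -0.87 ± 0.21 (SE, n = 2 per group, limma adjusted p = 0.190). The probes are annotated to different transcript records of the gene, so whether the KRT18 groups overlap depends on the probe.

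The basal and stress keratins stayed at or near background in both groups. KRT5 gave normalized signals of 4.33, 4.35, 4.33 and 4.45 on the 4 arrays, and its smallest detection p was 0.795. KRT14, its partner, gave 4.46, 4.60, 4.39 and 4.39. These are levels of undetected probes, and no difference between groups can be drawn from them.

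KRT15, a type I keratin of basal cells that also marks hair follicle stem cells, was the basal member that could be tested. It read 4.93 and 5.59 in wild type, compared with 5.53 and 5.71 in knockout, and wild type replicate 1, where it was not detected, was the low array. The other 3 arrays lay within a narrow range and the groups overlapped. The difference was 0.36 ± 0.28 (SE, n = 2 per group, limma adjusted p = 0.516), and it was 0.028 without wild type replicate 1. The median over the 3 basal keratins was 0.050.

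KRT16, a type I keratin of stressed epidermis, was detected on knockout replicate 1 alone, with a detection p of 0.00390. Its normalized signals were 4.56 and 4.55 in wild type, compared with 5.52 and 5.02 in knockout. Both knockout readings were above both wild type readings, with group means of 4.56 and 5.27. Neither wild type array detected it, and against a floor for them the fold was 1.08. That is no minimum, since knockout replicate 2 did not detect KRT16 either (detection p of 0.0805). This fold compares the mean of the brighter group with a floor for the dimmer one. On each array that floor is the dimmest detected probe or the gene's own signal, whichever is brighter. A second KRT16 probe was detected on no array, at 4.33, 4.51, 4.40 and 4.35. KRT6C was detected on none, with 4.35 and 4.47 in wild type, compared with 4.40 and 4.41 in knockout. The other stress keratins of the list had no named probe, so the stress keratins rest on these 2 genes.

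The other keratins split into detected and undetected genes. KRT10, the type I keratin of differentiating epidermis, read 11.26 and 11.04 in wild type, compared with 10.98 and 10.83 in knockout. It was lower on both knockout arrays, but the gap between the nearest arrays of the 2 groups was smaller than that between replicates. The difference was -0.24 ± 0.20 (SE, n = 2 per group), or 1.18-fold lower (limma adjusted p = 0.543). KRT10-AS1, an antisense neighbour chosen for mention after its values were seen, read 10.82 and 10.53 in wild type, compared with 10.44 and 9.89 in knockout, also lower on both. Whether the 2 probes each reach 1 strand only was not tested.

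KRT80, a type II keratin of many epithelia, read 10.75 and 10.74 in wild type, compared with 11.14 and 10.72 in knockout. Knockout replicate 1 stood above the rest and knockout replicate 2 just below wild type, so the groups overlapped. The difference was 0.19 ± 0.23 (SE, n = 2 per group, limma adjusted p = 0.677), and it was -0.022 without knockout replicate 1. Its second probe, ILMN_2366445, overlapped as well, at 8.45, 8.61, 8.21 and 8.69. There knockout replicate 1 was the lowest array and knockout replicate 2 the highest, the reverse of the brightest probe, and the difference was -0.080. KRT4 and KRT13, a pair of non-keratinizing squamous epithelia, and KRT23 were detected on no array. KRT4 read 4.65 and 4.80 in wild type, compared with 4.46 and 4.54 in knockout. KRT13 and KRT23 lay between 4.35 and 4.80 on all arrays. Over the 5 named genes the median difference was -0.056.

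Among the desmosomal cadherins, the 3 tested chains, DSG2, DSC2 and DSC3, read higher on both knockout arrays, and none passed over all genes. DSC3 counts here only because the knockout arrays detected it, so its direction follows in part from the filter. The median difference of the 4 was 0.35, with 0.23 for knockout replicate 1 and 0.43 for knockout replicate 2. DSG2, the desmoglein of simple epithelia, read 10.37 and 10.56 in wild type, compared with 10.66 and 11.10 in knockout. Knockout replicate 1 was close to wild type replicate 2, and knockout replicate 2 stood higher. The difference was 0.42 ± 0.24 (SE, n = 2 per group), or 1.34-fold (limma adjusted p = 0.376). Its second probe, ILMN_1704196, ran the same way, with 7.39 and 7.69 in wild type, compared with 7.94 and 8.03 in knockout.

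DSC2, the most widely expressed desmocollin, read 5.61 and 6.08 in wild type, compared with 6.11 and 6.98 in knockout, from raw signals of 165.8, 188.8, 190.0 and 238.1. Knockout replicate 1 was level with wild type replicate 2, and knockout replicate 2 was the high array. The difference was 0.69 ± 0.36 (SE, n = 2 per group), or 1.62-fold (limma adjusted p = 0.336). It was 0.26 without knockout replicate 2, and 1.13 without knockout replicate 1, where it passed (limma adjusted p = 0.0428). With the 147 probes kept, it was 0.38.

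DSC3, a desmocollin of basal layers, was not detected on either wild type array at its brightest probe, at 5.01 and 5.14. The probe was detected on both knockout arrays, at 5.44 and 5.30. On wild type replicate 2 it narrowly missed the threshold, with a detection p of 0.0506. Against a floor for wild type, as for KRT16, the fold was 1.16, from group means of 5.08 and 5.37. The difference was 0.29 (limma adjusted p = 0.451), with limma's interval from -0.21 to 0.78, so this fold is no minimum either. Over changes of processing that kept all 4 arrays, the DSC3 difference ranged from 0.074 to 0.30. Its second probe, ILMN_2359159, overlapped between groups, at 5.10, 5.22, 5.47 and 4.98. That probe was detected on wild type replicate 2 and knockout replicate 1, and not on the others. DSG3, the desmoglein of basal squamous layers, was detected on no array, at 4.91, 4.95, 4.69 and 4.77.

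The plaque proteins divided by direction. DSP read higher on both knockout arrays, JUP higher on 1 of them, and EVPL and PKP2 lower on both. Over the 7 genes the median difference was 0.34, but it was -0.0043 with knockout replicate 1 alone and -0.0035 with knockout replicate 2 alone, the middle genes then being PPL and PKP3, neither of them tested. DSP, the desmoplakin that ties the plaque to keratin, read 6.47 and 6.87 in wild type, compared with 7.24 and 7.78 in knockout, from raw signals of 205.0, 240.3, 274.2 and 320.6. The groups did not overlap. The difference was 0.84 ± 0.28 (SE, n = 2 per group), or 1.79-fold, with a 95% interval of 0.13 to 1.54 (limma adjusted p = 0.210). It was 0.57 without knockout replicate 2, and 1.10 without knockout replicate 1, where it passed (limma adjusted p = 0.0387). The mean over its kept probes gave 0.59. A dimmer probe, ILMN_1659749, read 5.08 and 5.40 in wild type, compared with 5.51 and 5.64 in knockout, also without overlap, and a further probe was detected on no array.

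JUP, plakoglobin, which is shared by desmosomes and adherens junctions, read 5.82 and 7.03 in wild type, compared with 6.87 and 9.03 in knockout. Knockout replicate 2 stood alone at the top, and knockout replicate 1 lay between the wild type arrays. The raw signals were 173.5 and 255.7 in wild type, compared with 237.5 and 597.2 in knockout. The gap between its wild type arrays was larger than in 99.7% of tested genes, and that between its knockout arrays larger than in 99.8%. The difference was 1.52 ± 0.79 (SE, n = 2 per group), or 2.87-fold, with a 95% interval from -0.47 to 3.52 (limma adjusted p = 0.338). It was 0.44 without knockout replicate 2, and 2.60 without knockout replicate 1, where it passed (limma adjusted p = 0.0308). On both dimmer probes knockout replicate 2 was again the highest array: ILMN_1741970 gave 5.24, 5.08, 5.03 and 6.03, and ILMN_2366864 gave 4.55, 4.62, 4.51 and 5.52.

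EVPL, envoplakin, a plakin of the cornified envelope, read 8.05 and 8.13 in wild type, compared with 7.57 and 7.74 in knockout. Both knockout arrays were below both wild type arrays by more than the gap within either group. The difference was -0.44 ± 0.20 (SE, n = 2 per group), or 1.35-fold lower (limma adjusted p = 0.286). PKP2, the plakophilin of simple epithelia and heart, read 7.08 and 7.30 in wild type, compared with 6.93 and 6.98 in knockout. It was lower on both knockout arrays, by 0.23 ± 0.20 (SE, n = 2 per group, limma adjusted p = 0.548), and the gap between the wild type arrays was of the same size.

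The remaining plaque genes were each detected on 1 array, not the same one. PKP1, a plakophilin of stratified epithelia, was detected on wild type replicate 1, at 5.18, and read 4.51, 4.49 and 4.71 elsewhere. PKP3, the most widespread plakophilin in epithelia, was detected on knockout replicate 1, at 5.66, and read 4.59 and 4.96 in wild type and 4.77 on knockout replicate 2. PPL, periplakin, the partner of envoplakin, was detected on knockout replicate 2, at 5.73, and read 4.96, 5.12 and 5.04 on the others. In each gene 1 array stood apart and the groups overlapped. Against a floor for wild type, as for KRT16, the folds of PKP3 and PPL were 1.05 and 1.17. The group means were 4.77 and 5.22 for PKP3 and 5.04 and 5.38 for PPL. Each knockout mean includes an undetected array, so neither fold is a minimum.

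**Figure D3:**
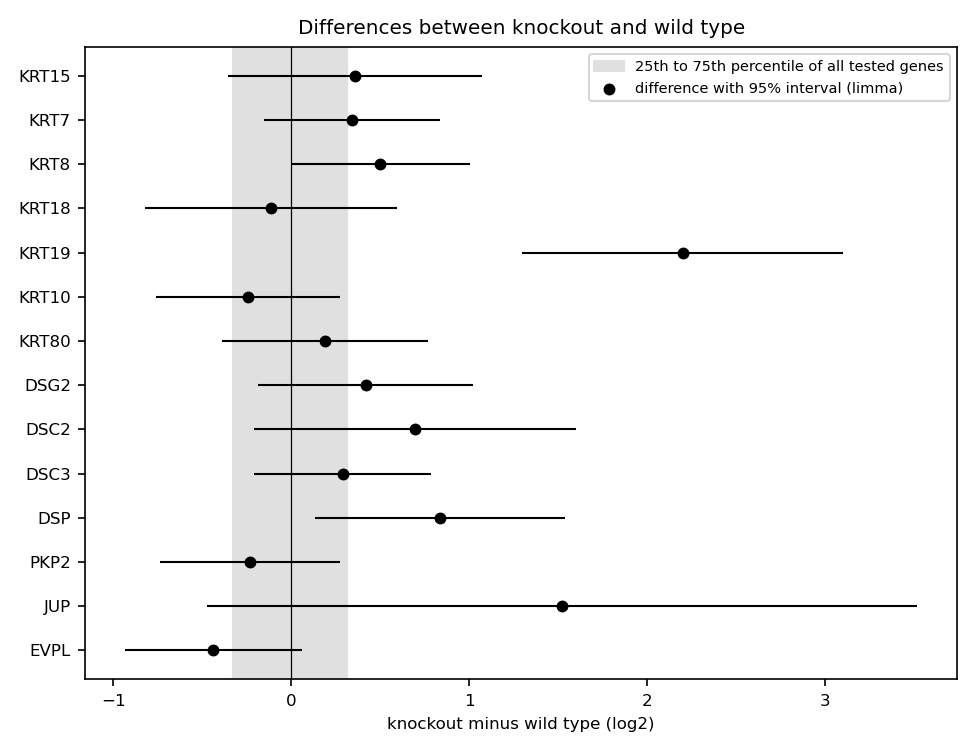
Difference between knockout and wild type (log2, horizontal axis) of the 14 tested genes, with points for limma's estimate and lines for its 95% interval (n = 2 per group). The grey band runs from the 25th to the 75th percentile of all tested genes, from -0.33 to 0.31, and only the lines of KRT19 and DSP lie wholly to one side of 0.

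The 2 knockout arrays differed in how far they lay from wild type for several members. Knockout replicate 2 was farther from the wild type mean in 8 of 14 tested members, and in 7323 of 11228 genes in all, so that the count shows nothing particular to the members. JUP was 0.44 above the wild type mean on knockout replicate 1 and 2.60 above it on knockout replicate 2. DSC2 was 0.26 and 1.13 above it, and DSG2 0.20 and 0.64. KRT19 was far above wild type on both, by 2.06 and 2.33. KRT80 and KRT18 were above the wild type mean on knockout replicate 1, by 0.40 and 0.21, and below it on knockout replicate 2. EVPL, PKP2 and KRT10 were below it on both arrays.

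**Figure D4:**
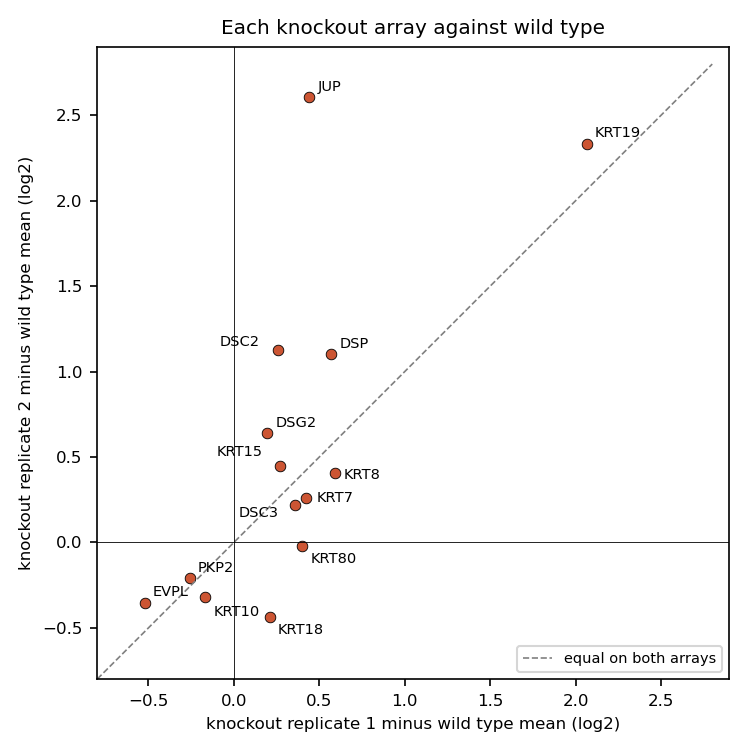
Difference of knockout replicate 1 (horizontal axis) and of knockout replicate 2 (vertical axis) from the wild type mean, both in log2 units, 1 point for each of 14 tested genes. The dashed line marks equal differences: KRT19, at 2.06 and 2.33, lies near it, and JUP, at 0.44 and 2.60, lies far above it.

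Genes linked to these structures were read from further lists. Of 36 keratins outside the members, 35 had a named probe, 33 were detected on no array and 1, KRT34, was tested, at 6.48 and 6.73 in wild type, compared with 6.30 and 6.32 in knockout. Of 6 other desmosome genes 2 were tested. PKP4, a plakophilin relative found at cell junctions, read 10.36 and 10.36 in wild type, compared with 9.74 and 9.93 in knockout, which differ by -0.52 ± 0.20 (SE, n = 2 per group, limma adjusted p = 0.234). PERP, a membrane protein of desmosomes, overlapped between groups, at 7.46, 7.82, 7.78 and 7.86.

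Hemidesmosomes anchor keratin to the matrix under the cell, and 6 of 9 genes of that list were tested. At an unadjusted p under 0.05, 3 of the 6 read higher, against 10.4% of all tested genes, and 0 lower, against 9.75%. None passed the threshold over all genes, and the median difference was 0.48 against -0.013 for all tested genes. ITGB4, the integrin β4 chain that binds the keratin linker plectin, read 4.78 and 5.44 in wild type, compared with 6.73 and 8.30 in knockout, and was undetected on 1 wild type array. Its partner ITGA6 read 6.19 and 6.81 in wild type, compared with 7.70 and 7.96 in knockout. CD151, a tetraspanin that accompanies integrins, read 12.67 and 12.93 in wild type, compared with 13.45 and 13.51 in knockout. In all 3 genes both knockout arrays were above both wild type arrays. These 3 were named for the smallest p of the list, and the groups overlapped in its other tested genes. The list was chosen with earlier results of these data known. The differences were 2.41 ± 0.56 for ITGB4, 1.33 ± 0.28 for ITGA6 and 0.68 ± 0.20 for CD151 (SE, n = 2 per group, limma adjusted p = 0.159, 0.147 and 0.188).

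Of 15 cornified envelope genes 7 were tested, with 1 higher and 0 lower at an unadjusted p under 0.05, against 10.4% and 9.75% of all tested genes. That gene was CNFN, cornifelin, at 7.03 and 7.17 in wild type, compared with 7.73 and 8.26 in knockout. FLG, filaggrin, had overlapping groups, at 8.23 and 7.40 against 7.73 and 6.33. SPRR1B and the remaining genes of the list had smaller differences or were not tested. Of 19 epithelial transcription factors 4 were tested. EHF, an ETS factor of epithelia, read 6.58 and 6.58 in wild type, compared with 8.13 and 7.53 in knockout, 1.25 ± 0.26 higher (SE, n = 2 per group, limma adjusted p = 0.147). SOX15 ran the other way, with 5.91 and 6.08 against 5.12 and 5.64, and KLF4 overlapped, with 7.03 and 7.81 against 6.29 and 7.53.

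Of 8 adherens junction genes 4 were tested. NECTIN1, an adhesion receptor, read 6.60 and 6.13 in wild type, compared with 5.34 and 4.93 in knockout, 1.23 ± 0.27 lower (SE, n = 2 per group, limma adjusted p = 0.154). CTNNA1, α-catenin, read 12.21 and 12.28 against 12.35 and 12.89, and CTNND1, p120 catenin, overlapped. Of 8 other intermediate filament genes 6 were tested. LMNB2, a nuclear lamin, was the one with an unadjusted p under 0.05, against 20.1% of all tested genes. It read 11.59 and 11.78 in wild type, compared with 11.11 and 10.75 in knockout. NES, nestin, overlapped, with 4.79 and 5.41 against 5.34 and 6.11. Of 9 keratin-binding and filament-linking genes 5 were tested, and TCHP, trichoplein, a keratin-binding protein of centrosomes, read 7.21 and 7.26 in wild type, compared with 6.86 and 6.48 in knockout (limma adjusted p = 0.248).

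Markers of other cells were read too, and none passed over all genes. The summed raw signal of 9 fibroblast genes was 1309 and 1282 in wild type, compared with 1406 and 1437 in knockout. That of 7 leukocyte genes was 1067 and 1099 in wild type, compared with 1144 and 1260 in knockout. The 6 smooth muscle and myoepithelial genes summed to 1303 and 1369 in wild type, compared with 1249 and 1560 in knockout. Among them, 5 fibroblast, 4 leukocyte and 2 smooth muscle and myoepithelial genes were detected on no array, so the sums include much background. The tested genes had median differences of 1.28 (fibroblast), 0.60 (leukocyte) and 0.73 (smooth muscle and myoepithelial). At an unadjusted p under 0.05, 2 of 2 tested fibroblast genes and 1 of 2 tested leukocyte genes read higher, against 10.4% of all tested genes, and lists of 2 tested genes say little. At that threshold 1 of 4 tested smooth muscle and myoepithelial genes read higher and 1 lower, against 10.4% and 9.75% of all genes. PTPRC, the defining marker of leukocytes, was detected on no array, and all 5 endothelial genes were detected on none. The part of these markers in the keratin and desmosome readings was not tested.

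The direction of the tested members depended little on processing, and their size did for the dimmer ones. Of 194 recalculations of the 14 differences, 2 turned sign, those of KRT18 and KRT80 without 1 knockout array. That total overstates how often direction was put to a test. Changes of filter, the intensity trend and the replicate block cannot alter a member's difference. The mean of probes cannot alter it for a gene with 1 kept probe. JUP ranged from 0.90 to 1.52 over changes of processing that kept all 4 arrays, DSC2 from 0.28 to 0.70, and DSP from 0.45 to 0.84. KRT19 ranged from 2.01 to 2.23 over the same changes.

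**Figure D5:**
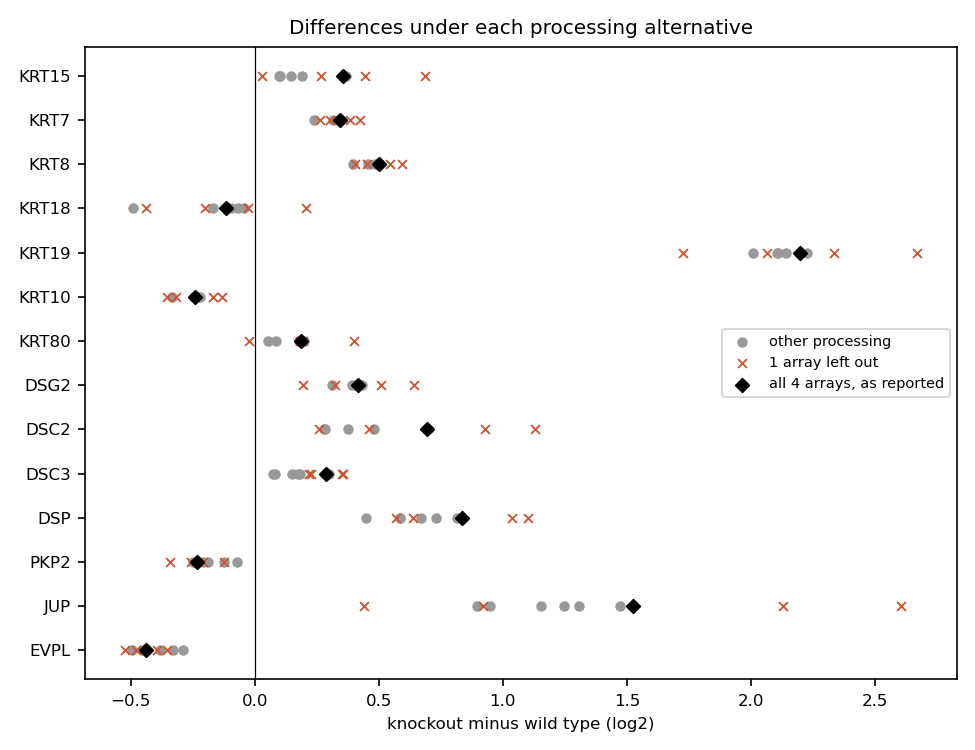
Difference between knockout and wild type (log2, horizontal axis) of each tested gene as reported (black diamonds), under other processing (grey circles) and with 1 array left out (crosses). KRT19 lies between 1.73 and 2.67 throughout, JUP spreads from 0.44 to 2.60, and crosses of KRT18 and KRT80 fall on both sides of 0.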

How the data were processed

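Total RNA of 4 samples was measured. Per the labels' protocols it was extracted with an RNeasy kit, checked on a Bioanalyser and labelled as biotin cRNA with an Ambion MessageAmp kit, and GenomeStudio is named, with no version, in the submitters' processing notes. Per the file headers, the authors' deposited table gives a mean signal intensity and a detection p-value for 47230 probes on each array, without normalization between arrays. A second deposited table holds log2 values of 47164 probes, and no source used here names their normalization. Its columns correlated with their own arrays' deviations at r = 0.949 to 0.955 and at most 0.484 with another array's, and their medians were 6.46, 6.45, 6.46 and 6.45. These values were not centred by gene, and their background treatment is unknown.

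Intensities were corrected by normexp in limma 3.58.1 (R 4.3.3), which infers the background from detection p-values, adding an offset of 16, and then quantile normalized. The offset shrinks folds of dim probes. Of all probes, 147 had detection p-values off the steps of 1 in 770 that the others follow, within a tolerance of 0.01, all up to 0.05 although 102 had mean signals under 150. With them the inferred background SD was 47.2 to 83.9 per array, and without them 10.1 to 11.2. They were left out of the reported values, a departure from the planned processing made after results with and without them had been seen, and no member's probe is among them. Genes were named from GEO's platform annotation, with symbols updated through the gene number for 30035 of 30082 probes, 30074 with 1 symbol and 8 with several. 17148 probes are unnamed here. Probe coordinates are left out, because the array's genome build is not named. Genes detected at p under 0.05 on 2 or more arrays by their brightest probe, 11228 in all, were tested by limma's two-sided moderated test with Benjamini-Hochberg adjustment at 0.05 over all of them. No batch other than the shared chip is known. The steps were tested on simulated data.

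The members and lists were chosen with earlier results of these data known. Named were all members, MACROH2A1 and up to 3 measured genes with the smallest p of each further list. Alternatives were an offset of 50, median scaling, no background correction, no filter, a stricter filter (p under 0.01 on every array), the authors' log2 values, the mean of probes, an intensity trend, a replicate block, each array left out, and the 147 probes kept.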

Additional observations from a re-analysis of the deposited data

How the results depend on the processing

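No member passed over all genes under any change of processing that kept all 4 arrays and had no replicate block. The number of members at an unadjusted p under 0.05 varied from 1 to 5 of those tested. With the 147 probes kept it was 4 of 14, 3 higher (DSP, KRT19 and KRT8) and 1 lower (EVPL), where the reported values give 2. KRT8 then had a limma p of 0.0184 and EVPL one of 0.0241. Over all genes the counts at an adjusted p under 0.05 were 0 with the 147 probes kept and 288 with the replicate block. Leaving out 1 array gave 0 to 2367 such genes and 748 to 4479 at an unadjusted p under 0.05, the highest without knockout replicate 1, where that group is 1 array assumed to vary like wild type. Without wild type replicate 2, 1 gene passed; the others left 0. Under the block KRT19 differed by 2.20 (limma adjusted p = 0.0348). The replicate numbers are shared by 2 pairs, whose deviations from group means correlated at 0.386 across 11228 genes, and the labels do not say what a number marks. Without knockout replicate 1, DSC2 was 1.13, DSP 1.10, JUP 2.60 and KRT19 2.33, all past the threshold, and KRT80 was -0.022, against 0.40 without knockout replicate 2. Without knockout replicate 2, KRT18 was 0.21, against -0.44 without knockout replicate 1.

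Medians of the groups moved as follows, and include undetected probes except under the stricter filter. That filter left only DSG2 and DSC2 of the cadherins and KRT10 and KRT80 of the other keratins, so its medians there cover fewer genes. The cause of the other moves was not tested. The median of the desmosomal cadherins was 0.18 without background correction and 0.56 with the stricter filter, and 0.23 to 0.43 with 1 array left out. That of the plaque proteins was 0.098 without background correction, 0.19 with an offset of 50, 0.17 in the authors' values, 0.095 with the 147 probes kept and -0.0043 to 0.42 with 1 array left out. That of the other keratins was -0.021 with an offset of 50, -0.027 with the stricter filter, -0.082 in the authors' values and -0.090 to -0.021 with 1 array left out. That of the simple epithelial keratins was 0.32 with scaling to equal medians. That of the stress keratins was 0.13 without background correction, 0.17 with an offset of 50, 0.21 in the authors' values and 0.10 with the 147 probes kept. The KRT16 difference, near background, was 0.71 as reported and 0.20 with the 147 probes kept, and 2 arrays per group limit every comparison.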

Other observations

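Values that belong to no comparison concern the 147 probes left out. All 147 carry detection p-values up to 0.05 on all 4 arrays, and 102 of them have a mean signal under 150, close to the median signals of the arrays, which lie between 142.7 and 146.8. How these detection p-values arose was not tested. None of the 147 is a probe of a keratin or desmosome gene described here.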
